A study of Gossypium hirsutum with 6 samples.

Results

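SMALL AUXIN UP RNA (SAUR) genes encode small plant proteins whose mRNAs rise early after auxin. Auxin is bound by the TIR1/AFB receptors, the Aux/IAA repressors are degraded, and the released auxin response factors (ARFs) switch on SAUR promoters. In Arabidopsis, several SAUR proteins inhibit PP2C.D phosphatases, which keeps plasma membrane H+-ATPases active, acidifies the cell wall and lets cells expand. Light, brassinosteroid and the PIF factors act on the same genes, so SAUR mRNA is often read as a mark of growing seedling tissue.

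The family was taken from the deposited expression table of upland cotton (Gossypium hirsutum) as every gene model whose best Arabidopsis match is 1 of 60 SAUR loci. The rule found 191 cotton copies of 70478 gene models, matched to 34 of the 60 loci. SAUR names below are those of the matched Arabidopsis locus, and cotton copies are given by their own IDs, in which A and D name the subgenome of this allotetraploid species. A mean of at least 0.5 FPKM (fragments mapped to a transcript, scaled for its length and for the number of mapped fragments in the library) over the 6 libraries was reached by 83 copies of 27 loci, and by 43158 gene models in all. Of the 108 copies not tested, 67 were listed at 0 in every library and 41 were above 0 but under this minimum. The tested copies nearest the minimum were Gh_A03G1766 (0.527 FPKM) and Gh_D02G2199 (0.542 FPKM), and the untested ones nearest it were Gh_D05G1791 (0.476 FPKM) and Gh_D09G1305 (0.473 FPKM).

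Seedlings of the wild-type cultivar CCRI24 were grown for 4 d on MS medium in a light/dark cycle and then kept for 24 h on MS medium with the solvent DMSO or with 5 μM AZD, and were 5 d old when taken. AZD (AZD8055) is an ATP-competitive inhibitor of the TOR kinase, which couples growth to nutrients and energy, and both groups thus share age, cultivar, genotype and medium. RNA came from seedlings, with no separation of organs described and 3 biological repeats in each group. The comparison asks how the SAUR mRNAs differ after a day of TOR inhibition.

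In RNA from seedlings, fewer cells of a type and less RNA per cell cannot be told apart. Directions rest on the labels of the libraries alone, in which the source names give the treatment and the titles match the columns. For the SAUR genes among its auxin genes, the study's tabulated ratios equal those under the labels in size but have the opposite sign. An exchange of the group names would leave them so. PCR that the study describes for other genes is given in its tabulated direction and was not analysed here. If the group names are exchanged, every lower below reads higher and every higher reads lower, so the groups are called the libraries labelled DMSO and labelled AZD. The table gives FPKM and no read counts, so no counting interval is given, and the read totals tabulated with the study were not used here. Between 50776 and 52832 gene models were above 0 in each. Light-harvesting and root genes were both present in every library, the root genes at a low level. The library labelled DMSO replicate 1 stood apart from the other DMSO libraries in light-harvesting genes and in some SAUR copies, and counts without it are given where they differ.

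Of the tested SAUR copies 7 were lower and 1 was higher in the libraries labelled AZD, and the largest differences lay in copies of the loci SAUR1 and SAUR78. In limma's moderated test with Benjamini-Hochberg adjustment over all tested genes, 7 of 83 copies (8.43%) were lower at an adjusted p under 0.05, against 2.8% of all tested genes. In the other direction 1 copy (1.2%) was higher, against 1.89% of all tested genes. The share lower was thus above that of all tested genes, and the share higher was below it. Among the lower copies, Gh_D02G2219, Gh_D08G1376 and Gh_D08G1506 had AZD means of 0.383, 0.399 and 0.169 FPKM. They reached the minimum of 0.5 FPKM only through the DMSO libraries. The share of such genes among all lower calls was not computed. The median log2 fold change of the 83 copies was -0.26, and that of all tested genes -0.0063. It was below 0 in 48 copies (57.8%, against 50.7% of all tested genes) and above 0 in 35 (42.2%, against 49.3%). All fold changes are on the scale of log2(FPKM + 0.5), which understates the change of weakly expressed genes.

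The tested copies spread more widely than other genes in both directions. The log2 fold change was under -1 in 23 copies (27.7%, against 5.33% of all tested genes) and over 1 in 11 copies (13.3%, against 3.59%). The groups did not overlap, with AZD below, in 22 copies (26.5%, against 15.5%), and with AZD above in 7 copies (8.43%, against 14.5%). Most SAUR copies were weakly expressed: 62 of the 83 had a mean under 5 FPKM, 12 reached 10 FPKM, and 36 were at 0 in at least 1 library (43.4%, against 4.97% of all tested genes). Their median mean was 2.04 FPKM, against 3.95 FPKM for all tested genes. With 4 copies under 0.5 FPKM on average in the DMSO libraries and 12 in the AZD libraries, some passed the minimum only through the group where they were high.

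SAUR1 (AT4G34770), a locus that in Arabidopsis lies among other SAUR genes, had 11 copies, of which 4 were tested and all 4 were lower in the libraries labelled AZD. Gh_D04G1627, the copy with the highest mean of the family, had 108, 104 and 81.0 FPKM in the DMSO libraries, given here and below in the order of replicates 1, 2 and 3, and 3.64, 1.98 and 4.40 FPKM in the AZD libraries. Every AZD library was far below every DMSO library, with a log2 fold change of -4.72 (SE 0.28, n = 3 per group, limma adjusted p = 0.00202). This call held when any of the 6 libraries was left out (adjusted p between 0.00440 and 0.0183).

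Gh_A04G1051, the second SAUR1 copy by level, was at 76.4, 54.7 and 52.9 FPKM in the DMSO libraries and at 0, 2.96 and 0.489 FPKM in the AZD libraries. The groups were again widely apart, at -5.67 on the log2 scale (SE 0.66, limma adjusted p = 0.0131). Without AZD replicate 3 or DMSO replicate 3 the call was lost (adjusted p up to 0.0722). Its group means in FPKM were 61.3 ± 13.1 against 1.15 ± 1.59 (SD, n = 3).

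The other called SAUR1 copies, Gh_D02G2218 and Gh_D02G2219, have neighbouring IDs. Gh_D02G2218 was at 22.6, 7.05 and 21.7 FPKM in the DMSO libraries and at 0, 1.08 and 0.539 FPKM in the AZD libraries (log2 fold change -4.07, SE 0.57, limma adjusted p = 0.0211). DMSO replicate 2 was lower than the other DMSO libraries but still above every AZD library. Gh_D02G2219 was at 12.8, 8.06 and 10.2 FPKM in the DMSO libraries and at 1.15, 0 and 0 FPKM in the AZD libraries (log2 fold change -3.84, SE 0.49, limma adjusted p = 0.0159). Both kept their direction in every subset of libraries, but Gh_D02G2218 passed only without DMSO replicate 1 or DMSO replicate 2, and Gh_D02G2219 only without those or AZD replicate 1. The highest adjusted p were 0.0889 and 0.0782. Summed over its 11 copies, SAUR1 stood at 188 ± 28.0 FPKM in the DMSO libraries and at 5.41 ± 0.614 FPKM in the AZD libraries (SD, n = 3).

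**Figure D1:**
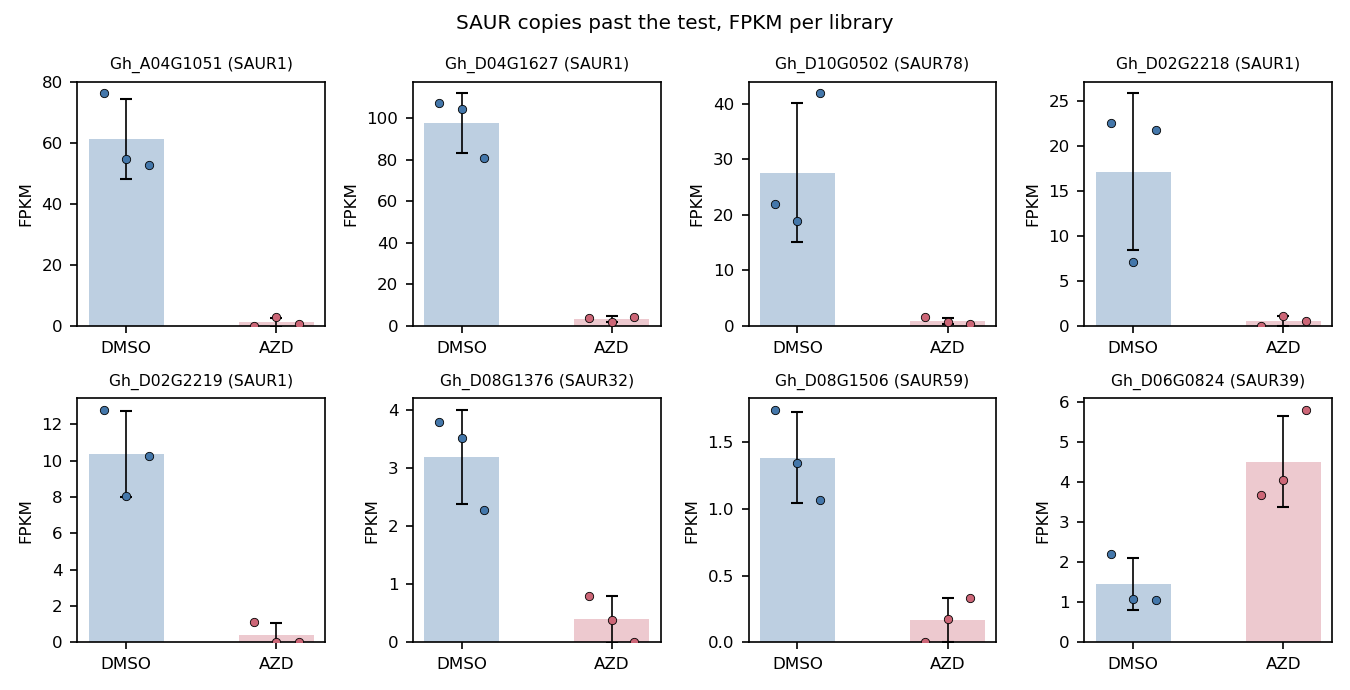
FPKM of the 8 SAUR copies past the test, by label (bars, mean of 3 libraries; error bars, SD, cut at 0; points, replicates 1 to 3 from left to right; each panel has its own axis from 0). The SAUR1 and SAUR78 copies fell from 7.05 to 108 FPKM in the DMSO libraries to at most 4.40 FPKM in the AZD libraries, and Gh_D06G0824 alone was higher.

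SAUR78 (AT1G72430) binds ethylene receptors in Arabidopsis, and its relatives SAUR76 and SAUR77 are also linked to ethylene responses. Its only tested copy, Gh_D10G0502, was at 22.0, 18.8 and 41.9 FPKM in the DMSO libraries and at 1.53, 0.754 and 0.364 FPKM in the AZD libraries. DMSO replicate 3 was the highest, and no library of one group came near the other group. The log2 fold change was -4.34 (SE 0.40, limma adjusted p = 0.00765), and the call was lost only without AZD replicate 2 (adjusted p = 0.0532). The other 2 SAUR78 copies were at 0 in every library. The related SAUR77 (AT1G17345) had 2 tested copies with log2 fold changes of -0.86 and -0.55, and neither passed.

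SAUR30, SAUR31 and SAUR32 form a group in which 11 of 12 tested copies had a log2 fold change under 0, with a median of -0.73, but 1 passed the test. SAUR32 (AT2G46690) acts in the apical hook of Arabidopsis seedlings, the bend that shields the shoot tip in soil. Its copy Gh_D08G1376 was at 3.79, 3.53 and 2.27 FPKM in the DMSO libraries and at 0.803, 0.394 and 0 FPKM in the AZD libraries (log2 fold change -2.12, SE 0.38, limma adjusted p = 0.0365). The groups did not overlap. The call did not survive the loss of any 1 of the 6 libraries (adjusted p between 0.0634 and 0.127). The 8 tested SAUR32 copies had a median of -0.64, and the one with the largest value, Gh_D12G1154, was at 3.51, 0.983 and 2.90 FPKM in the DMSO libraries and at 2.24, 1.84 and 2.84 FPKM in the AZD libraries. That copy did not differ beyond its spread (log2 fold change 0.028, SE 0.39, limma adjusted p = 0.975), and under a common sum it turned to -0.19. Gh_D09G0057 (SAUR30, AT5G53590) was at 1.18, 6.32 and 5.54 FPKM in the DMSO libraries and at 0.555, 0 and 1.04 FPKM in the AZD libraries. Here DMSO replicate 1 was close to the AZD libraries, and the fold change of -2.14 did not pass (SE 0.65, limma adjusted p = 0.116).

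SAUR59 (AT3G60690) copies lay on both sides of 0. Gh_D08G1506 was lower, at 1.74, 1.34 and 1.07 FPKM in the DMSO libraries and at 0, 0.178 and 0.330 FPKM in the AZD libraries (log2 fold change -1.51, SE 0.28, limma adjusted p = 0.0409). This weak copy lost its call when any 1 library was left out (adjusted p between 0.0570 and 0.128). Gh_A11G0725, in contrast, was at 2.34, 0.925 and 1.96 FPKM in the DMSO libraries and at 4.22, 3.86 and 4.09 FPKM in the AZD libraries. Its AZD libraries were all above its DMSO libraries, at 1.08 on the log2 scale (SE 0.26, limma adjusted p = 0.0724), which is not past the test. Gh_D11G0844, a SAUR59 copy on subgenome D that was chosen after its values were seen, had a log2 fold change of 0.95 (limma adjusted p = 0.0553). The difference between these copies and Gh_D08G1506 was not tested. SAUR34 and SAUR36, the latter a promoter of leaf senescence in Arabidopsis, had 4 tested copies with log2 fold changes between -0.84 and -0.33, none of which passed.

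SAUR39 (AT3G43120) held the one copy that was higher. Gh_D06G0824 was at 2.19, 1.08 and 1.07 FPKM in the DMSO libraries and at 3.68, 4.04 and 5.81 FPKM in the AZD libraries. Each AZD library exceeded each DMSO library, with a log2 fold change of 1.39 (SE 0.27, limma adjusted p = 0.0443). With a library left out it passed only without DMSO replicate 1 (adjusted p = 0.0185). The other tested SAUR39 copy, Gh_A06G0714, was at 12.4, 9.59 and 8.94 FPKM in the DMSO libraries and at 16.6, 17.9 and 13.0 FPKM in the AZD libraries. It had the same direction and no overlap, but its log2 fold change of 0.59 did not pass (SE 0.18, limma adjusted p = 0.120). The other 5 SAUR39 copies were under the minimum.

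SAUR14 (AT4G38840), which light induces in Arabidopsis cotyledons, was the locus with the most copies. Of its 32 copies, 16 were at 0 in every library and 13 were tested, with log2 fold changes from -1.94 to 2.05, a median of 0.89 and no call. The strongest, Gh_D02G2204, was at 33.5, 0 and 6.09 FPKM in the DMSO libraries and at 25.7, 27.9 and 10.1 FPKM in the AZD libraries. DMSO replicate 1 was the highest of all 6 and DMSO replicate 2 the lowest, so the groups overlapped (log2 fold change 2.05, SE 1.44, limma adjusted p = 0.451). Gh_D02G2205 was at 5.55, 0 and 1.85 FPKM in the DMSO libraries and listed at 0 in all AZD libraries. Gh_D02G2208 was listed at 0 in all DMSO libraries and at 2.60, 1.84 and 0 FPKM in the AZD libraries. Neither passed the test (limma adjusted p = 0.235 and 0.221), and both groups of each copy include a library at 0.

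Some of the weak SAUR14 copies may rest on few fragments, a number that was not counted here. Copies of near-identical sequence may also share reads that the counting could split either way. In 6 weak SAUR14 copies, chosen after their values were seen, all values of a library were whole multiples, within 1%, of a common step of 2.77, 2.16 and 1.85 FPKM in the DMSO libraries and of 2.60, 1.84 and 2.31 FPKM in the AZD libraries. No copy held more than 4 such steps. Exactly equal values recurred between copies, in 2 to 7 tested SAUR copies of a DMSO library and in 11 to 18 of an AZD library. Differences between single copies among these 6 were therefore not resolved here, and differences between other SAUR14 copies were not tested.

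Many copies have consecutive IDs. A total of 7 runs of at least 3 SAUR copies, with ID numbers at most 5 apart, held 75 of the 191 copies and 26 of the tested ones. The longest were a run of 23 copies on A03 (Gh_A03G1765 to Gh_A03G1788) and one of 23 copies on D02 (Gh_D02G2198 to Gh_D02G2221), both holding mainly SAUR14 copies and closing with SAUR4, SAUR1 and SAUR6 copies. The D02 run had 11 tested copies and 7 at 0 in every library, and the A03 run had 7 tested and 15 at 0. Within the D02 run, the SAUR1 copies Gh_D02G2218 and Gh_D02G2219 were lower, while 5 of its 6 tested SAUR14 copies had fold changes above 0 that did not pass. All SAUR1 copies of the A03 run were under the minimum.

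**Figure D2:**
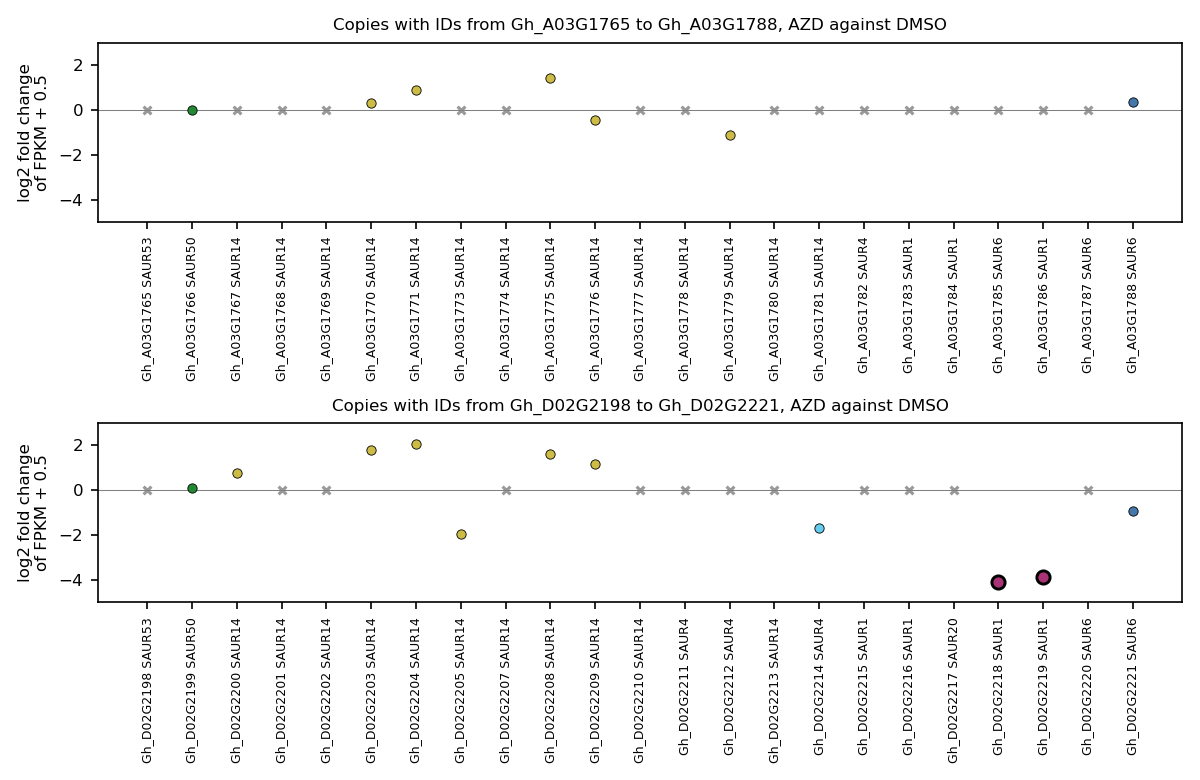
Log2 fold change of FPKM + 0.5 (libraries labelled AZD against DMSO) for the copies of the longest ID runs, in ID order, with the SAUR name on the axis giving each point's colour. Crosses at 0 are copies under the minimum and carry no value, and thick outlines mark the SAUR1 copies Gh_D02G2218 and Gh_D02G2219, at -4.07 and -3.84, the 2 past the test.

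The clade of SAUR12, SAUR50 and SAUR51 held 3 of the 5 copies with the highest mean FPKM of the family and no call. SAUR50 (AT4G34760) promotes cotyledon opening in the light in Arabidopsis. Of the 12 tested copies of this clade, 10 had a log2 fold change above 0, and the median was 0.26. Gh_D01G0947 (SAUR51, AT1G75580) was at 48.8, 54.0 and 28.5 FPKM in the DMSO libraries and at 53.9, 47.1 and 47.5 FPKM in the AZD libraries. Its groups overlapped (log2 fold change 0.22, SE 0.25, limma adjusted p = 0.648), and rescaling to a common sum, which moved the median of all tested genes to -0.24, turned it to -0.046. Gh_A01G0906, also matched to SAUR51, was at 22.9, 11.2 and 5.94 FPKM in the DMSO libraries and at 36.7, 22.0 and 28.2 FPKM in the AZD libraries. DMSO replicate 1 lay inside the range of the AZD libraries, and the fold change of 1.25 did not pass (SE 0.47, limma adjusted p = 0.176).

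Gh_A13G2198 (SAUR12, AT2G21220) was at 43.0, 9.91 and 6.80 FPKM in the DMSO libraries and at 22.7, 23.9 and 32.9 FPKM in the AZD libraries. DMSO replicate 1 was above every AZD library, while the other DMSO libraries were below them all (log2 fold change 0.84, SE 0.64, limma adjusted p = 0.491). Gh_A12G0375 (SAUR50) went the other way, at 2.73, 3.93 and 3.67 FPKM in the DMSO libraries and at 1.29, 1.78 and 0.600 FPKM in the AZD libraries. It had no overlap, and its fold change of -1.25 did not pass (SE 0.29, limma adjusted p = 0.0655).

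The SAUR41 clade, here SAUR71 and SAUR72, is expressed in the stele of young Arabidopsis organs and modulates cell expansion. None of its 6 tested cotton copies passed, and the median was -0.23. Gh_D08G2457 (SAUR72, AT3G12830) was at 1.59, 4.06 and 3.60 FPKM in the DMSO libraries and at 0.770, 0.787 and 1.24 FPKM in the AZD libraries (log2 fold change -1.26, SE 0.32, limma adjusted p = 0.0812). The groups did not overlap. At the other end, Gh_D13G1275 (SAUR72) had values between 0 and 2.11 FPKM in the DMSO libraries and between 0.241 and 0.742 FPKM in the AZD libraries, with a log2 fold change of 0.0028 (SE 0.62, limma adjusted p = 0.997).

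SAUR17 (AT4G09530), a light-repressed gene that helps to hold the apical hook closed in Arabidopsis, had 2 weak copies. Gh_D05G2613 was at 0, 3.37 and 1.43 FPKM in the DMSO libraries and listed at 0 in all AZD libraries (limma adjusted p = 0.238). Gh_A05G2346 was at 0, 1.68 and 2.85 FPKM in the DMSO libraries and at 0, 0 and 1.79 FPKM in the AZD libraries (log2 fold change -0.89, SE 0.89, limma adjusted p = 0.601). In both copies DMSO replicate 1 was at 0, as were AZD replicates 1 and 2. SAUR20, the only matched locus of the SAUR19 to SAUR24 group that promotes hypocotyl elongation in Arabidopsis, had 1 copy, which was under the minimum.

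Among the other loci, Gh_A12G2619 (SAUR55, AT5G50760) came closest to a call. It was at 4.66, 1.99 and 3.74 FPKM in the DMSO libraries and at 1.03, 0.641 and 0.199 FPKM in the AZD libraries. The groups were apart, at -1.83 on the log2 scale (SE 0.38, limma adjusted p = 0.0513), and it passed under 3 of the other settings tried. Gh_D09G1378 (SAUR48, AT3G09870) was at 0.296, 0 and 3.80 FPKM in the DMSO libraries and at 7.12, 6.93 and 1.64 FPKM in the AZD libraries. Replicate 3 of each group crossed over to the other (log2 fold change 2.05, SE 0.89, limma adjusted p = 0.230). The 5 tested SAUR52 and SAUR69 copies had log2 fold changes from -0.62 (Gh_D01G0949) to 0.33 (Gh_A13G2199) with overlapping groups in each. SAUR5, named after its values were seen, had 2 tested copies with non-overlapping groups and fold changes of -2.39 and -1.39 that did not pass.

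**Figure D3:**
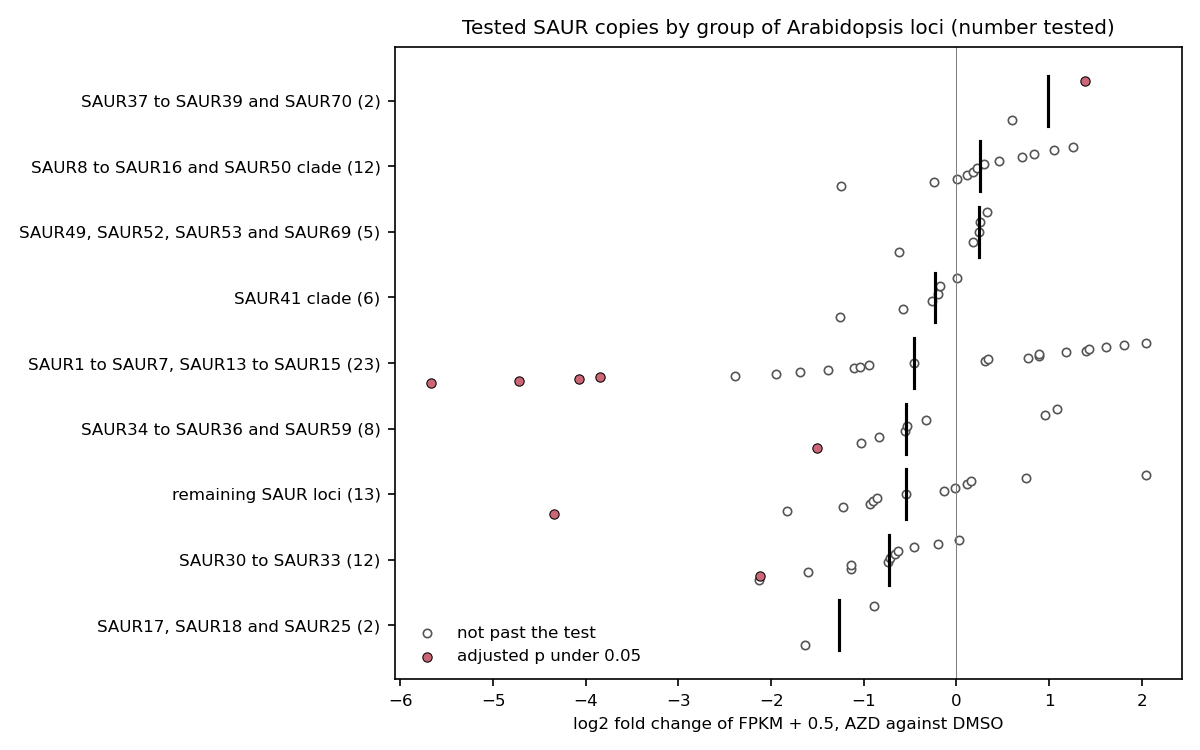
Log2 fold change of FPKM + 0.5 (libraries labelled AZD against DMSO) of each of the 83 tested SAUR copies, in groups of Arabidopsis loci, with the number tested in brackets, filled points past the test and a vertical bar at the group's median. SAUR1 and SAUR78 copies lie between -5.67 and -3.84, and 11 of 12 SAUR30 to SAUR33 copies lie under 0.

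Of the 8 copies past the test 7 were D copies. Of 36 tested A copies 1 was lower, and of 47 tested D copies 6 were lower and 1 was higher, a difference that was not tested. The medians were -0.36 in A and -0.24 in D. In total 11 of the copies described here also stand in the study's own list of auxin genes, which was chosen on these same libraries, so their calls are not independent evidence of a direction.

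Summed over all 191 copies, the family reached 693, 479 and 467 FPKM in the DMSO libraries and 356, 367 and 341 FPKM in the AZD libraries. The AZD libraries were lower and much closer to each other (355 ± 12.9 FPKM) than the DMSO libraries (546 ± 127 FPKM, SD, n = 3). The 7 lower copies made up 35.6%, 41.3% and 45.2% of the family sum in the DMSO libraries and 2.0%, 2.0% and 1.8% in the AZD libraries. Without these 7 copies the sums were 446, 281 and 256 FPKM in the DMSO libraries and 349, 359 and 335 FPKM in the AZD libraries, and the groups overlapped. SAUR14 copies summed to 117, 19.2 and 33.6 FPKM in the DMSO libraries and to 67.6, 95.1 and 84.0 FPKM in the AZD libraries, so that DMSO replicate 1 alone exceeded the AZD libraries. These sums follow from the same values as the calls and are given as a description.

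**Figure D4:**
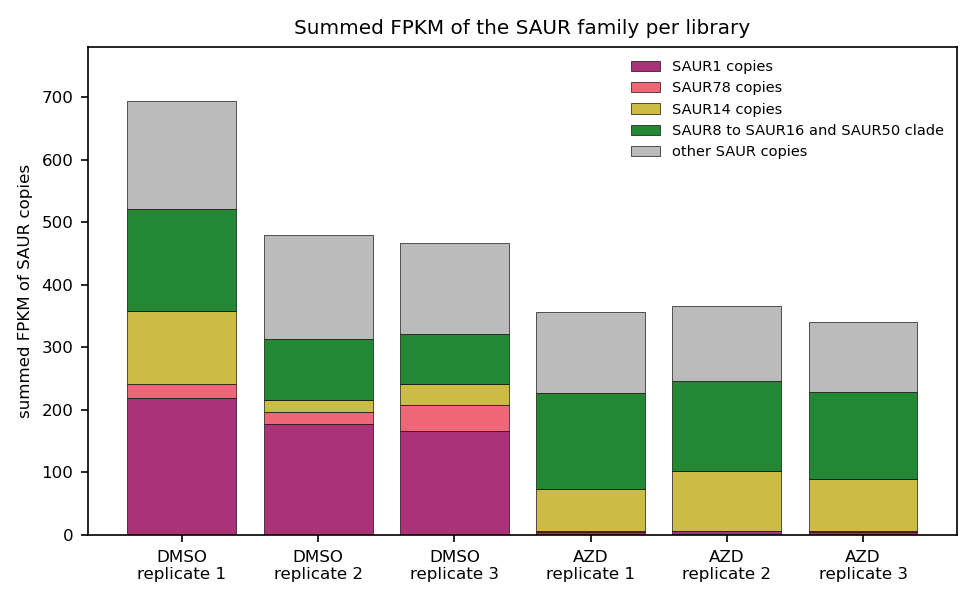
Summed FPKM of the 191 SAUR copies in each library, stacked by locus group. SAUR1 and SAUR78 copies fill much of the DMSO bars and nearly vanish from the AZD bars, where SAUR1 sums to between 4.79 and 6.02 FPKM, while SAUR14 and the SAUR50 clade are highest in DMSO replicate 1.

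DMSO replicate 1 mattered most for the copies with higher values in the AZD libraries. Without it, 7 copies were higher (8.43%, against 4.2% of all tested genes in the same fit) and 8 lower (9.64%, against 3.68%) at an adjusted p under 0.05. More genes of all kinds thus passed without this library, in both directions. The 7 higher copies were Gh_D06G0824, Gh_A11G0725, Gh_A01G0906, Gh_A13G2198, the SAUR14 copies Gh_A03G1775 and Gh_D02G2203 and the SAUR42 copy Gh_D13G2428. Among the 8 lower copies were the 4 SAUR1 copies and Gh_D10G0502, joined by Gh_D05G2613, Gh_D08G2457 and Gh_D09G0057. Leaving out AZD replicate 2, AZD replicate 3 or DMSO replicate 3 left 2 lower copies each (2.41%, against 0.345%, 0.44% and 0.619% of all tested genes in these fits). Leaving out AZD replicate 1 left 4 (4.82%, against 0.336%), and without DMSO replicate 2 there were 6 (7.23%, against 1.6%). Of these 6, 5 were also lower with all libraries, and the other was the SAUR14 copy Gh_D02G2205. With 2 libraries in a group these fits have less power, and they pool the spread of both groups.

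Genes that act before and after the SAUR proteins were followed in 5 lists. Of their 118 tested cotton copies, 5 (4.24%, against 2.8% of all tested genes) were lower and none (against 1.89%) higher in limma's test, where 19 and 10 respectively had an unadjusted p under 0.05 (against 11.9% and 11.4% of all tested genes). The lists were the auxin receptors TIR1 and AFB (18 tested, median 0.22), the activating ARFs (20 tested, median 0.11), the PP2C.D phosphatases that SAURs inhibit (35 tested, median 0.016), the plasma membrane H+-ATPases (18 tested, median -0.11) and the PIF, BZR1 and HY5 transcription factors (27 tested, median -0.16). No receptor, ARF or H+-ATPase copy passed. Of the 18 receptor copies, 17 had a log2 fold change above 0 (7 under the common sum, where the list's median was -0.047 and that of all tested genes -0.24), and in 9 every AZD library was above every DMSO library (14.5% of all tested genes), with none in the opposite order.

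Of the PP2C.D copies 1 was lower, Gh_A10G1864, matched to PP2C.D3 (AT3G12620). It was at 1.79, 0.976 and 1.61 FPKM in the DMSO libraries and at 0.0506, 0.331 and 0.199 FPKM in the AZD libraries (log2 fold change -1.49, SE 0.28, limma adjusted p = 0.0405). The groups were apart, at a low level. Gh_A10G1864 also stands in the study's list of abscisic acid genes, with a ratio of equal size and opposite sign. That list was chosen on these same libraries, so this call is not independent evidence of a direction.

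Of the transcription factor copies 4 were lower. The PIF8 copy Gh_D12G0943 (AT4G00050, a phytochrome-interacting factor) was at 26.8, 22.6 and 20.2 FPKM in the DMSO libraries and at 10.9, 7.41 and 11.1 FPKM in the AZD libraries (log2 fold change -1.21, SE 0.20, limma adjusted p = 0.0297). A PIF8 copy on an unplaced scaffold, Gh_Sca008309G01, was at 44.5, 32.3 and 24.0 FPKM in the DMSO libraries and at 15.7, 10.9 and 14.3 FPKM in the AZD libraries (log2 fold change -1.24, SE 0.25, limma adjusted p = 0.0489). Neither copy had overlapping groups. Gh_A09G0075, matched to PIF5 (AT3G59060), which drives hypocotyl elongation in Arabidopsis, was at 2.61, 2.12 and 2.40 FPKM in the DMSO libraries and at 1.21, 0.917 and 1.09 FPKM in the AZD libraries (log2 fold change -0.87, SE 0.15, limma adjusted p = 0.0340). Gh_D08G2461, matched to HY5 (AT5G11260), a promoter of development in light, was at 11.1, 13.6 and 9.94 FPKM in the DMSO libraries and at 6.36, 6.48 and 4.50 FPKM in the AZD libraries (log2 fold change -0.94, SE 0.19, limma adjusted p = 0.0464). None of the 5 pathway calls held in more than 1 of the 6 subsets with a library left out.

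**Figure D5:**
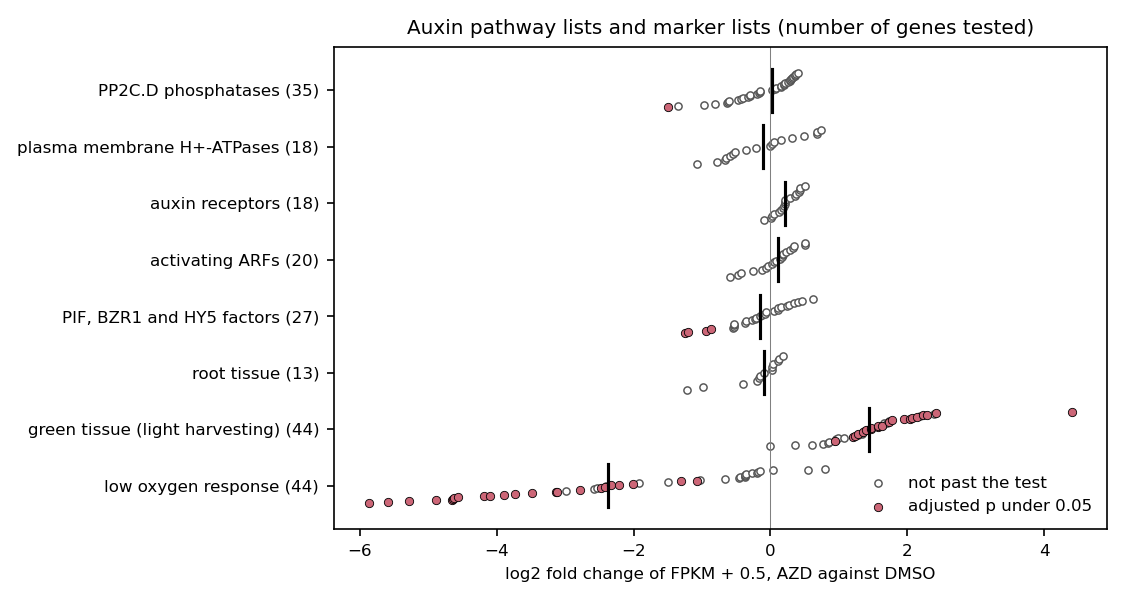
Log2 fold change of FPKM + 0.5 (libraries labelled AZD against DMSO) of each tested copy in the auxin pathway lists and the marker lists, with the number tested in brackets, filled points past the test and a vertical bar at the median. The pathway lists lie near 0 (medians -0.16 to 0.22), while light-harvesting copies lie above it (median 1.44) and low oxygen copies below it (median -2.37).

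Lists of other seedling genes moved with the same comparison. Of 44 tested light-harvesting copies, a mark of green tissue, 21 were higher (against 1.89% of all tested genes) and none lower, and their summed level was 8003 to 14808 FPKM in the DMSO libraries and 30248 to 33686 FPKM in the AZD libraries, with DMSO replicate 1 the highest of its group. Of 44 tested copies of low oxygen response genes, 23 were lower (against 2.8% of all tested genes) and none higher, with sums of 1313 to 2803 FPKM in the DMSO libraries and 239 to 313 FPKM in the AZD libraries. Of 13 tested root copies none passed, with sums of 21.5 to 36.5 FPKM in the DMSO libraries and 18.8 to 30.8 FPKM in the AZD libraries. The part of green tissue, low oxygen response or of DMSO replicate 1 in the SAUR differences was not tested.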

How the data were processed

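RNA of the 6 libraries was sequenced on an Illumina instrument as paired ends. The library kit is named differently in the labels (TruSeq) and in the study's methods (a directional kit), so strandedness is uncertain. Per the labels the authors used TopHat2, Cufflinks and Cuffdiff, with versions and genome build not given in the sources used here, and deposited 1 table of FPKM values per gene model with its Arabidopsis match. The 6 FPKM columns were used and 0 were left out. The Cuffdiff test of the methods needs reads and was not rerun.

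From these values log2(FPKM + 0.5) was fitted with limma 3.58.1 (R 4.3.3, trend on, two-sided, all 6 libraries, no covariate) for every gene with a mean of at least 0.5 FPKM, with Benjamini-Hochberg adjustment over 43158 genes and a threshold of 0.05. P-values measure the spread between 3 libraries per group. An exact permutation of 3 against 3 libraries cannot go below 0.1, so none is given for single genes. The fit was also run on simulated data with normal noise and with changes planted only in better expressed genes. That run does not cover weak copies with values at 0. Tables and plots were made with Python 3.11.15.

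Copies were named by rule: every copy past the test, the 5 highest means, the largest and smallest fold change in each locus group, the SAUR genes of the study's auxin list, copies with a mean of at least 0.5 FPKM at 0 in all libraries of one group, and the pathway genes past the test. The members and lists were chosen with earlier results of these data known. Alternatives were 2 other pseudocounts, 2 other filters, 3 scalings, no trend, a replicate block, each library left out, the ratio of group means, and the limits stated in the methods. The scaling to a common sum left out the 3 genes with the highest means. Sums over all genes ran from 2.77e+06 FPKM (AZD replicate 2) to 6.22e+06 FPKM (AZD replicate 1). No sequence, promoter or coordinate is given, since the gene IDs matched no entry of the reference table used.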

Additional observations from a re-analysis of the deposited data

How the results depend on the processing

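Lower SAUR copies numbered 7 and ranged from 2 to 8 with 1 library left out, and higher copies numbered 1 and ranged from 0 to 7. The lower copies numbered 10 under the common sum, 8 with a pseudocount of 1, 6 with no filter and 5 with a pseudocount of 0.1. No filter and no variance trend each left 0 higher copies, and quantile normalization gave 2. With no filter 11 copies and with no trend 10 copies had a higher value at an unadjusted limma p under 0.05. Shares of all tested genes were not computed for these alternative fits. The limits stated in the methods are a p up to 0.8 and log2 ratios of 1 or more in size. With limma's unadjusted p in place of Cuffdiff's, 28 copies were lower and 11 higher at these limits. The share of all tested genes at these limits was not computed, so the counts are not compared with other genes. Pathway copies lower numbered 5, and 2 with no filter, 3 with no trend, 8 at the stated limits and 0 to 8 with 1 library left out. Pathway copies higher numbered 0, and 0 to 2 with 1 library left out. The cause was not tested.

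Replicate numbers did not pair the libraries: deviations of same-numbered libraries correlated at 0.018, -0.042 and -0.088, and no library was most like its own number. With the replicate number as a block, 1 SAUR copy was lower (Gh_D04G1627, limma adjusted p = 0.0388) and 0 were higher, with 0 pathway copies lower. At an unadjusted limma p under 0.05, 23 SAUR copies were lower and 9 higher, and 14 pathway copies were lower and 8 higher. The share of all tested genes in the block fit was not computed, so these counts are not compared with other genes.

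The median of the 83 copies stayed under 0, from -0.49 (rescaled to a common sum, where the median of all genes moved to -0.24) to -0.16. Only the genes named by rule were followed singly across the settings. Other tested copies also changed sign, such as Gh_A03G1771, at 0.89 in the main fit and -0.16 as a ratio of means. Among the named SAUR copies, the sign changed for 3 that never passed. Gh_D01G0947 was at -0.046 under the common sum and -0.056 to 0.40 with 1 library left out. Gh_D12G1154 was at -0.19 under the common sum, -0.095 as a ratio of means and -0.41 to 0.31 with 1 left out. Gh_D13G1275 was at -0.14 under the common sum, -0.061 with a pseudocount of 1, -0.55 as a ratio of means and -0.52 to 0.67 with 1 left out. No read counts were used, so the counting error of weak copies was not computed.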
